A study of Mus musculus with 6 samples.

Results

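The genes described are the 10 genes of the NRF2 antioxidant pathway named Nfe2l2, Keap1, Gclc, Gclm, Gsr, Txn1, Txnrd1, Prdx1, Srxn1 and Nqo1, which are 10 of the 54532 genes in the deposited expression table. They were chosen by gene name, and all 10 were found. NRF2, the transcription factor encoded by Nfe2l2, is held in the cytosol by KEAP1, which marks the protein for degradation. Oxidants and electrophiles modify KEAP1, NRF2 then accumulates, pairs with a small MAF protein in the nucleus and binds antioxidant response elements in front of genes for glutathione synthesis, thioredoxin recycling and quinone detoxification. In macrophages the pathway is known as a brake on inflammatory activation, and because NRF2 is controlled largely as a protein, the amount of its own RNA is not a measure of its activity.

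RNA-seq was performed on poly-A RNA of peritoneal macrophages of wild-type male C57BL/6J mice aged 6 to 8 weeks, which had been recruited with thioglycolate, harvested by lavage and cultured overnight. Control cells were left untreated. Model cells were primed with LPS (500 ng/mL), a bacterial membrane component, over 5.5 h and then given ATP (2 mM), a trigger of the NLRP3 inflammasome, over a further 0.5 h. MUS cells were treated like Model cells and additionally given 50 μM muscone, a macrocyclic ketone of musk, from 5 h after LPS, which was 0.5 h before ATP. Each group had 2 libraries. The labels do not say whether the libraries of a group came from separate mice or cultures, so the p-values measure the spread between these libraries, which may be technical. Elicited cells in culture are a model of recruited macrophages and not of resident ones.

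The table gave FPKM, a fragment count divided by transcript length and library scale, which compares levels between genes per unit length. Between 15526321 and 17135442 fragments lay on genes in a library. The 7 macrophage markers Adgre1, Itgam, Cd68, Csf1r, Lyz2, Mertk and Fcgr1 were all present, with a summed FPKM of 11836 to 13340 in Control, 8426 to 12535 in Model and 10257 to 12096 in MUS. Lyz2 alone held most of each sum, and single markers moved both ways. Csf1r had 208 and 272 FPKM in Control against 83.4 and 101 in Model, and Fcgr1 had 18.3 and 7.87 against 161 and 147. The 3 T cell markers summed to at most 0.195 FPKM and the 3 B cell markers to at most 1.21 FPKM in a library. The 3 mast cell markers summed to at most 0.686 FPKM. The 3 eosinophil markers summed to 2.46 to 4.06 FPKM in Control and to at most 1.52 FPKM in Model and MUS. The 4 mesothelial or fibroblast markers summed to 13.1 to 14.9 FPKM in Control, 11.99 to 24.5 in Model and 12.1 to 14.6 in MUS. Among them, Col1a1 had 5.34 FPKM in Model replicate 1 and 14.01 FPKM in Model replicate 2. The 3 neutrophil markers summed to 13.5 to 30.6 FPKM in Control, 56.5 to 110 in Model and 50.3 to 64.0 in MUS, all of it from S100a8, while S100a9 and Ly6g were listed at 0 in every library. Mitochondrially encoded genes held 1.39% to 1.51% of the fragments in Control but 0.352% to 0.497% in Model and 0.206% to 0.314% in MUS. The part of these differences in the results was not tested, and in bulk RNA fewer cells of a type and less RNA per cell cannot be told apart.

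To show what NRF2 could recognise in these genes, the 250 bases in front of the annotated start were taken from RefSeq (GRCm38.p6), which gave windows for 8 of the 10 genes, and Gclc and Gsr had none. The core of the antioxidant response element, TGACNNNGC, was searched on both strands of windows that ran from 250 bases before to 50 bases after a start. It was found in 5 of the 8 genes, compared with 14% of 27025 genes, and in 5 of their 10 windows, compared with 12.4% of 32851 windows. The stretches in front of Nfe2l2, Gclm, Txnrd1 and Prdx1 are shown because each holds a match, in capitals, and that of Txn1 because this gene was a DEG in a comparison given further on and its window holds none. They run 5′ to 3′ on the strand of the gene.
Nfe2l2 (chr2:75704664-75704913, minus strand): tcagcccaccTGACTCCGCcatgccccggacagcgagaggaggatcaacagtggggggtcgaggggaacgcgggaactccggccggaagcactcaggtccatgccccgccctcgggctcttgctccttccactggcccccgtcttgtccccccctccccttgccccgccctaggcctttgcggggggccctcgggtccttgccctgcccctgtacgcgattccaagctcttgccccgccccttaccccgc
Gclm (chr3:122245307-122245556, plus strand): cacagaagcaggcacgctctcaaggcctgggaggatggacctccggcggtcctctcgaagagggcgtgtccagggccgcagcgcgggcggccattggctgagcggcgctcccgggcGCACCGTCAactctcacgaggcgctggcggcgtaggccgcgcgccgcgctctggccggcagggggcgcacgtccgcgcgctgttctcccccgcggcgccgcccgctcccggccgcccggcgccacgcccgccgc
Txnrd1 (chr10:82858956-82859205, plus strand): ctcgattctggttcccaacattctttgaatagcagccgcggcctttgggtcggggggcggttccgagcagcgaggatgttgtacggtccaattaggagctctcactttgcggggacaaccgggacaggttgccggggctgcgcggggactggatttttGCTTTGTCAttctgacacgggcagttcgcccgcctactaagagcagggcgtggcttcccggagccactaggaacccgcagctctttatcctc
Prdx1 (chr4:116685349-116685598, plus strand): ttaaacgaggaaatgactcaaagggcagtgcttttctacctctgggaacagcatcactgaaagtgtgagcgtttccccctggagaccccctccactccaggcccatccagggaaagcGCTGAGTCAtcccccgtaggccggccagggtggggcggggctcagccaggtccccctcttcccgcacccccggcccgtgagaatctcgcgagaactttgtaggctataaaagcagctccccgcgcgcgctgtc
Txn1 (chr4:57956412-57956661, minus strand): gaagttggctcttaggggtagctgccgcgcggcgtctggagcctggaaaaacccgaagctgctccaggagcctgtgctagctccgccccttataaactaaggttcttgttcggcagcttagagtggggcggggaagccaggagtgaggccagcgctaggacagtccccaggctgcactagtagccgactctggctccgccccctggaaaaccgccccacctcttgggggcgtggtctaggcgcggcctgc

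In Nfe2l2 the match began 240 bases upstream of the start on the strand of the gene (TGACTCCGC), so the gene for NRF2 itself carries the core. The matches of Gclm (TGACGGTGC, 134 bases upstream), Txnrd1 (TGACAAAGC, 92 bases upstream, in 1 of its 3 windows) and Prdx1 (TGACTCAGC, 133 bases upstream) lay on the opposite strand and are therefore printed as their reverse complement in the lines above. The Prdx1 match also contains TGACTCA, the site of AP-1 factors such as JUN and FOS. The match of Srxn1 (TGACCTAGC, opposite strand) began at base 29 counted from the start. Other spellings were not searched, and the Srxn1 window also holds TGAGTCAGC in front of the start. The windows of Keap1, Nqo1 and Txn1 held no TGACNNNGC, which says only that these letters were not in these windows.

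The 10 genes covered a wide range of levels. Averaged over the 6 libraries, Prdx1 had the highest level (1079 FPKM), followed by Txn1 (734), Txnrd1 (141), Srxn1 (95.7), Nfe2l2 (75.1), Gsr (69.0), Gclm (33.6), Gclc (13.2), Keap1 (6.42) and Nqo1 (1.74). Between neighbours in this order the ranges over libraries were apart only for Txn1 and Txnrd1 and for Keap1 and Nqo1, and all other neighbours overlapped. Nqo1, which reduces quinones and is the usual reporter of NRF2 in liver and epithelia, was read from 34 to 85 fragments per library, so its values carry the largest counting error of the 10. On GRCm38, Nfe2l2 and Srxn1 lie on chromosome 2, Gclm on 3, Prdx1 and Txn1 on 4, Nqo1 and Gsr on 8, Keap1 and Gclc on 9 and Txnrd1 on 10. The 2 most abundant members, the peroxide reductase Prdx1 and its partner thioredoxin Txn1, act on the same electron chain.

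**Figure D1:**
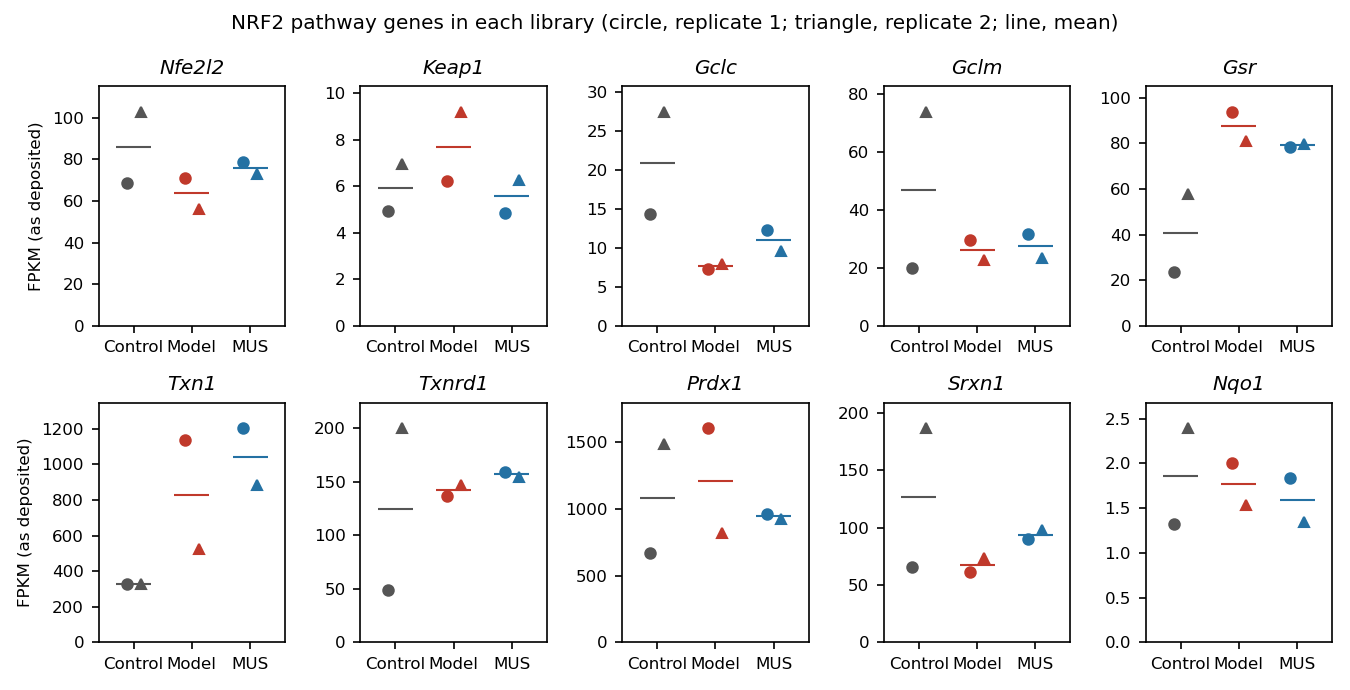
FPKM of the 10 genes in each library (vertical axes, each starting at 0), with circles for replicate 1, triangles for replicate 2 and lines for the mean of the 2 libraries. Gclc lies higher in both Control libraries than in the other 4, Gsr and Txn1 lie lower there, and the Control triangle lies far above the Control circle for Txnrd1, Gclm, Srxn1, Gsr and Prdx1.

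The 2 Control libraries stood apart in most of these genes, which bears on every comparison with Control. Txnrd1, the cytosolic thioredoxin reductase, had 48.7 FPKM in Control replicate 1 and 200.1 FPKM in replicate 2, a ratio of 4.11. Gclm, a subunit of the enzyme that starts glutathione synthesis, had 20.1 and 74.0 FPKM, a ratio of 3.69. Srxn1, which repairs overoxidised peroxiredoxins, had 65.9 and 186 FPKM, a ratio of 2.83. Replicate 2 was also higher by more than 1 on the log2(FPKM + 1) scale in Gsr (1.26) and Prdx1 (1.14). Thus 5 of the 10 genes were apart by more than 1 in this direction, compared with 5.93% of all 9794 genes tested, and the median difference was 1.02 over the 10 genes and 0.04 over all genes. The difference was positive in 9 of 10 genes against 53.2% of all genes, and the exception was Txn1 (-0.01).

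In MUS 0 of the 10 genes were higher in replicate 2 by more than 1 (1.09% of all genes), and in Model 0 were (5.01% of all genes). The largest differences in Model went the other way, as Txn1 had 1137 FPKM in replicate 1 and 522 FPKM in replicate 2, and Prdx1 had 1603 and 818 FPKM. Among genes outside the 10, Control replicate 2 was higher by more than 1 in 3 of 28 other NRF2 targets tested, with 15 of 28 positive and a median of 0.21, in 1 of 10 regulators and partners and in 2 of 20 genes of thiol metabolism, against the 5.93% of all genes given above. The following examples from these lists were chosen after their values were seen. Slc7a11, the cystine importer that feeds glutathione synthesis, had 3.57 and 64.8 FPKM, a ratio of 18.2. The superoxide dismutase Sod2 had 9.23 and 66.0 FPKM, the small MAF gene Maff 4.54 and 21.2 FPKM, and heme oxygenase Hmox1 142 and 298 FPKM. In the opposite direction, Idh1 had 87.7 FPKM in replicate 1 and 36.0 FPKM in replicate 2. These are differences between single libraries and have no test.

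**Figure D2:**
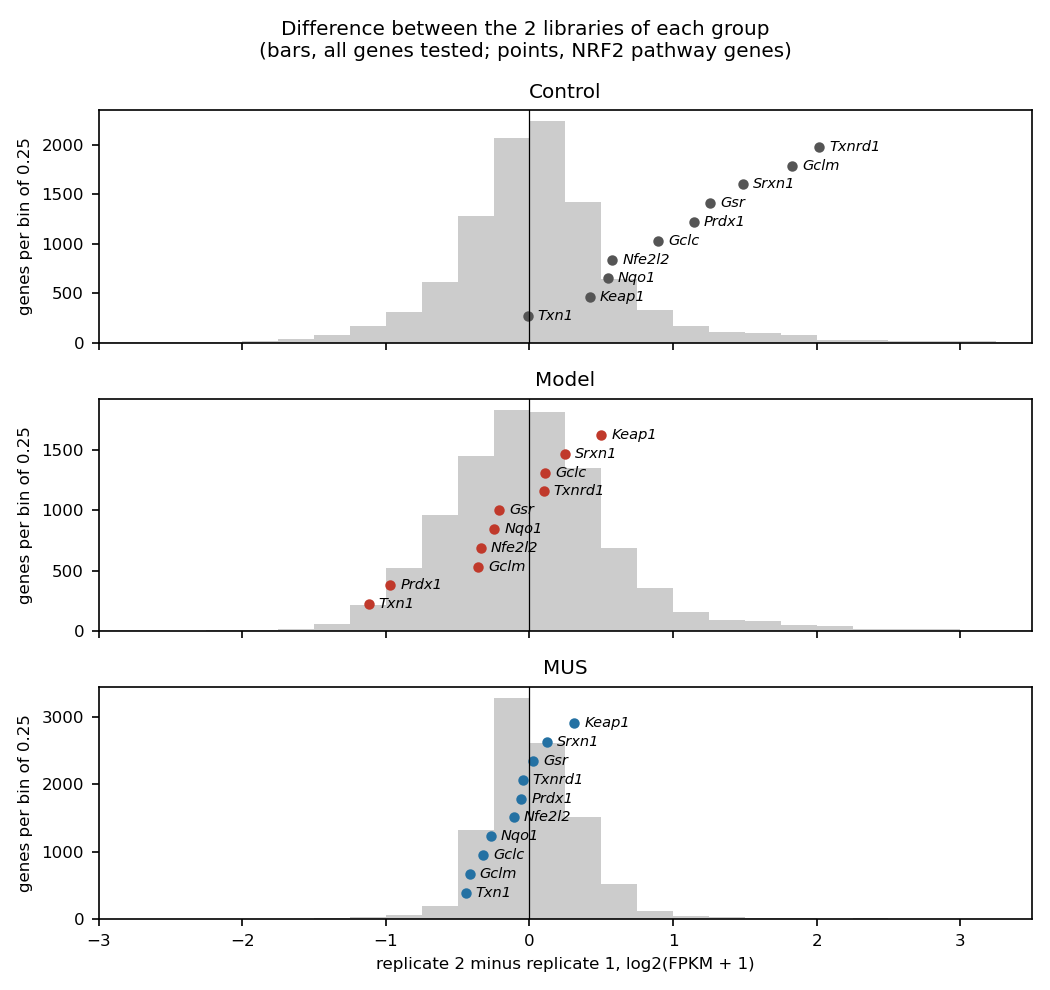
Replicate 2 minus replicate 1 on the log2(FPKM + 1) scale (horizontal axis) for each group. Bars count all genes tested in bins of 0.25 and points mark the 10 genes at arbitrary heights. In Control the points run from -0.01 (Txn1) to 2.02 (Txnrd1), with 9 of 10 to the right of 0, whereas in Model and MUS they lie on both sides of 0.

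The first comparison, Model vs. Control, asks what LPS and ATP together did to the pathway. Of the 10 genes, 1 was a DEG (differentially expressed gene: adjusted p of at most 0.05 and a log2 fold change beyond 1 in either direction), and it was lower in Model. Among all genes tested, 15.1% were DEGs, 9.50% higher and 5.56% lower in Model. The median log2 fold change was 0.09 over the 10 genes and 0.04 over all genes, so the members were spread around no change, from -1.27 to 1.23. Libraries of the groups did not overlap in 3 of the 10 genes, compared with 61.1% of all genes, 2 of them higher in Model (32.6% of all genes) and 1 lower (28.5%). All fold changes are on the log2(FPKM + 1) scale, which shrinks those of low genes such as Nqo1, and come with a standard error (SE) from limma.

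Gclc, the catalytic subunit of glutamate-cysteine ligase, the rate-limiting enzyme of glutathione synthesis (ENSMUSG00000032350, GRCm38, chr9:77754535-77794485, plus strand), was the DEG. It had 14.3 and 27.4 FPKM in Control, 7.32 and 7.97 FPKM in Model, and 12.3 and 9.63 FPKM in MUS. Both Control libraries lay above all others, and the Model libraries lay lowest. Mean expression was 20.9 ± 9.29 FPKM in Control and fell to 7.64 ± 0.460 FPKM in Model (SD, n = 2 each), a log2 fold change of -1.27 (SE 0.33, limma adjusted p = 0.0412). Against Control replicate 1 alone the log2 fold change was -0.82 (adjusted p = 0.0936), and against Control replicate 2 alone it was -1.72 (adjusted p = 0.0225). The sign was therefore the same against either library, while the call depended on Control replicate 2. It was also not a DEG with only the Control and Model libraries in the fit (adjusted p = 0.0938), with no filter on low genes (0.170), or without any one Model or MUS library (0.0918 to 0.146).

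Gclm, the modifier subunit of the same ligase, was not a DEG. Gclm had 20.1 and 74.0 FPKM in Control, 29.7 and 22.9 FPKM in Model and 31.7 and 23.5 FPKM in MUS, so both Model values lay between the Control values (log2 fold change -0.55, SE 0.56, adjusted p = 0.521). Of its 50-base stretches, 3.92% occur in other annotated genes, and those sharing most were Ppia, Gm10123 and Gm6061. The Gclm to Gclc ratio within a library needs no scaling between libraries. Control libraries had ratios of 1.40 and 2.70, Model libraries 4.05 and 2.88, and MUS libraries 2.58 and 2.44. Both Model ratios were above both Control ratios and both MUS ratios, and the MUS ratios lay within the Control range. Such separation of 2 libraries from 2 has no test here, since an exact permutation test cannot go below p = 0.333.

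Gsr, glutathione reductase, which returns oxidised glutathione to its reduced form, had 23.4 and 57.6 FPKM in Control, 93.8 and 81.0 FPKM in Model, and 78.4 and 79.8 FPKM in MUS. All 4 stimulated libraries lay above both Control libraries, but the gene was not a DEG in Model vs. Control (log2 fold change 1.22, SE 0.43, adjusted p = 0.0972). Without Control replicate 2 it became one (1.85, adjusted p = 0.00800), and without Control replicate 1 the value was 0.59 (adjusted p = 0.301). Gclc and Gsr, which act on the same glutathione pool, thus had opposite signs in this comparison.

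Txn1, thioredoxin, the small protein that reduces disulfides in peroxiredoxins and other targets, had 330 and 327 FPKM in Control, 1137 and 522 FPKM in Model, and 1203 and 884 FPKM in MUS. The Control libraries were nearly equal and lay below the other 4, whereas the Model libraries differed by a ratio of 0.460 (replicate 2 over replicate 1). Txn1 was not a DEG in Model vs. Control (log2 fold change 1.23, SE 0.47, adjusted p = 0.114). Without Model replicate 2 it was one (1.79, adjusted p = 0.0470), and without Model replicate 1 it had 0.67 (adjusted p = 0.331). Of its transcript stretches of 50 bases, 2.50% also occur in the pseudogene Txn-ps1, so a few of its fragments could have been assigned to either.

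Txnrd1, which keeps thioredoxin reduced at the expense of NADPH, had 137 and 147 FPKM in Model and 160 and 154 FPKM in MUS, between its Control values of 48.7 and 200.1 FPKM. The log2 fold change was 0.51 (SE 0.61, adjusted p = 0.585), and its sign depended on the Control library. Against Control replicate 1 alone Txnrd1 was a DEG with 1.52 (adjusted p = 0.0166), and against Control replicate 2 alone it had -0.49. Its sign also turned under 3 other scalings (-0.31 to -0.027). The Txn1 to Txnrd1 ratio within a library was 6.76 and 1.63 for Control, 8.29 and 3.55 for Model and 7.53 and 5.72 for MUS, with overlap between the groups. The Txnrd1 locus also holds Eid3 on the same strand and Gm38560 and Gm47073 on the other, none of them above 10.2 FPKM. Same-strand genes also overlap Nfe2l2 (Gm24996, at most 12.4 FPKM) and Gsr (Gm24727, at most 11.7 FPKM).

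Prdx1, the peroxiredoxin that thioredoxin reduces, had 673 and 1488 FPKM in Control, 1603 and 818 FPKM in Model and 964 and 926 FPKM in MUS. The groups overlapped (log2 fold change 0.19, SE 0.53, adjusted p = 0.819), and the sign turned under 3 other scalings (-0.66 to -0.35). For Prdx1 8.29% of the 50-base stretches occur in other annotated genes such as Gm21399, the largest such share of the 10 genes. Srxn1 had 61.6 and 73.1 FPKM in Model and 89.6 and 97.6 FPKM in MUS, against 65.9 and 186 FPKM in Control (Model vs. Control -0.72, SE 0.49, adjusted p = 0.339). Against Control replicate 2 alone Srxn1 was a DEG (-1.46, adjusted p = 0.0408), and against Control replicate 1 alone it had 0.027.

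The transcription factor and its inhibitor were not DEGs on the deposited scale. Nfe2l2 had 68.6 and 102.8 FPKM in Control, 71.2 and 56.1 FPKM in Model and 78.7 and 73.0 FPKM in MUS, with overlap between Control and Model (log2 fold change -0.40, SE 0.33, adjusted p = 0.415). It was a DEG, lower in Model, after quantile normalization (-1.15, adjusted p = 0.0352) and after rescaling without mitochondrial and the 20 highest genes (-1.03, adjusted p = 0.0336). Keap1 had 4.95 and 6.96 FPKM in Control, 6.22 and 9.21 FPKM in Model and 4.88 and 6.30 FPKM in MUS (0.32, SE 0.27, adjusted p = 0.444), and its sign turned to -0.23 and -0.16 under 2 other scalings. The Nfe2l2 to Keap1 ratio was 13.9 and 14.8 for Control, 11.5 and 6.09 for Model and 16.1 and 11.6 for MUS. Both Model ratios lay below all others, without a test.

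Nqo1 had 1.32 and 2.39 FPKM in Control, 2.01 and 1.54 FPKM in Model and 1.83 and 1.35 FPKM in MUS, and the 3 groups overlapped (Model vs. Control -0.02, SE 0.27, adjusted p = 0.958). The 95% interval of that log2 fold change ran from -0.65 to 0.60 on the log2(FPKM + 1) scale, and its sign was positive after quantile normalization (0.048). An antisense transcript, Gm16754, overlaps Keap1 at up to 1.26 FPKM, and the sources used here do not state whether counting used strand.

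**Figure D3:**
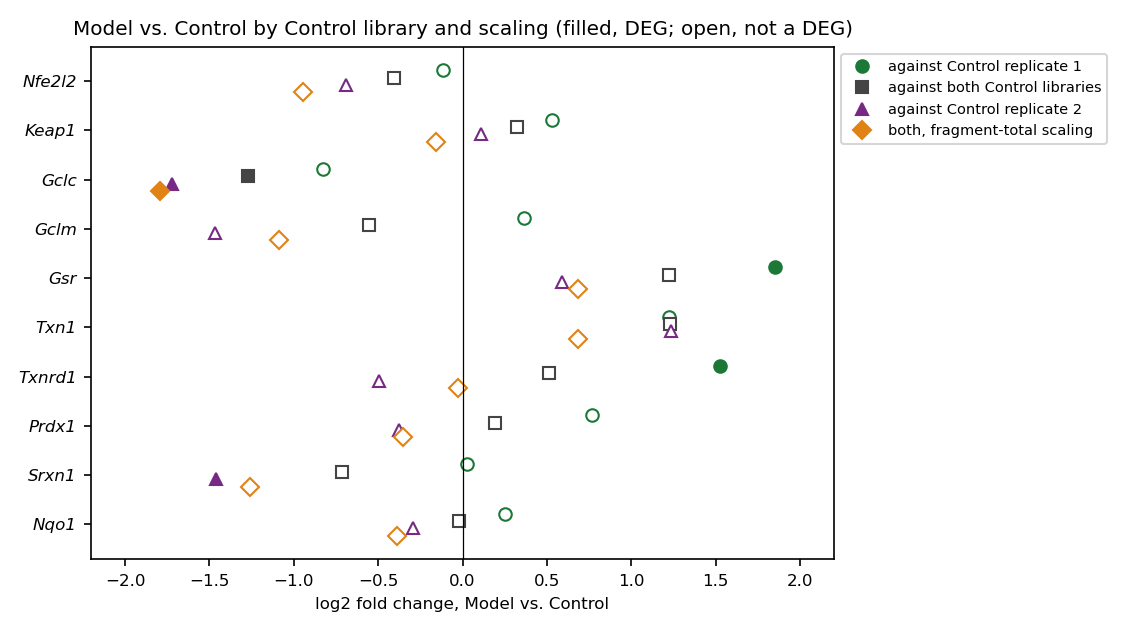
log2 fold change in Model vs. Control (horizontal axis) of each gene, taken against both Control libraries (squares), against replicate 1 alone (circles) or replicate 2 alone (triangles), and after scaling to fragment totals (diamonds). Filled symbols are DEGs. Gclc is left of 0 and Gsr and Txn1 are right of 0 in all 4, while Gclm, Txnrd1, Prdx1, Srxn1 and Nqo1 change side with the Control library.

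The deposited scale also differs between groups, which moves all comparisons with Control. The per-million scale behind the FPKM was 1.34 and 1.45 times the fragments on genes in Control, against 0.909 to 0.998 times in Model and MUS. Dividing by fragment totals instead shifted the median log2 fold change of all genes in Model vs. Control from 0.04 to -0.42. On that scale the median of the 10 genes was -0.37, Gclc had -1.79 (adjusted p = 0.0111) and remained a DEG, Gsr had 0.69 and Txn1 had 0.68. DEGs among all genes then numbered 647 higher and 1633 lower, compared with 930 higher and 545 lower on the deposited scale.

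MUS vs. Model asks whether muscone given between LPS and ATP altered the pathway. None of the 10 genes was a DEG, and 0 of 9794 genes (0%) were DEGs in this comparison by limma. The count over all genes was also 0 by limma with voom on recovered fragments and under the 3 other scalings. The study, which tested counts with DESeq2 at the same thresholds, did report DEGs in this comparison, most of them lower with muscone. With the replicate number as a block, 4 genes were DEGs, and none of them was one of the 10. An unadjusted p under 0.05 was found for 0 of the 10 genes and for 825 genes in all (8.42%). The log2 fold changes of the 10 genes ran from -0.39 (Keap1) to 0.47 (Srxn1), with adjusted p of 0.759 to 0.988, and their median was 0.11, against 0.01 over all genes.

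These small values are not evidence of equality, because the intervals were wide. For Srxn1 the 95% interval of the log2 fold change was -0.68 to 1.63, for Gclc -0.32 to 1.24 and for Txn1 -0.68 to 1.52. The narrowest were those of Nqo1 (-0.73 to 0.53) and Keap1 (-1.04 to 0.26). The log2(FPKM + 1) scale shrinks the interval of Nqo1, which had at most 2.39 FPKM and 34 to 85 fragments per library. Its narrow interval is therefore not a sign of precision. On this scale, log2 fold changes beyond 1.63 or below -1.53 lay outside the interval of every one of the 10 genes.

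Libraries of MUS and Model did not overlap in 5 of the 10 genes, compared with 42.1% of all genes. Nfe2l2, Gclc, Txnrd1 and Srxn1 were higher in both MUS libraries (4 of 10, and 21.2% of all genes), and Gsr was lower (1 of 10, and 21.0% of all genes). For Gclc the MUS mean of 11.0 ± 1.88 FPKM (SD, n = 2) lay between the Model mean of 7.64 and the Control mean of 20.9 FPKM (log2 fold change vs. Model 0.46, SE 0.33, adjusted p = 0.764). For Srxn1, MUS had 93.6 ± 5.66 FPKM and Model 67.4 ± 8.18 FPKM (SD, n = 2), a log2 fold change of 0.47 (SE 0.49, adjusted p = 0.855). For Txn1, whose Model libraries spanned 522 to 1137 FPKM, MUS vs. Model was 0.42 (SE 0.47, adjusted p = 0.870), and without Model replicate 2 its sign turned (-0.14).

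**Figure D4:**
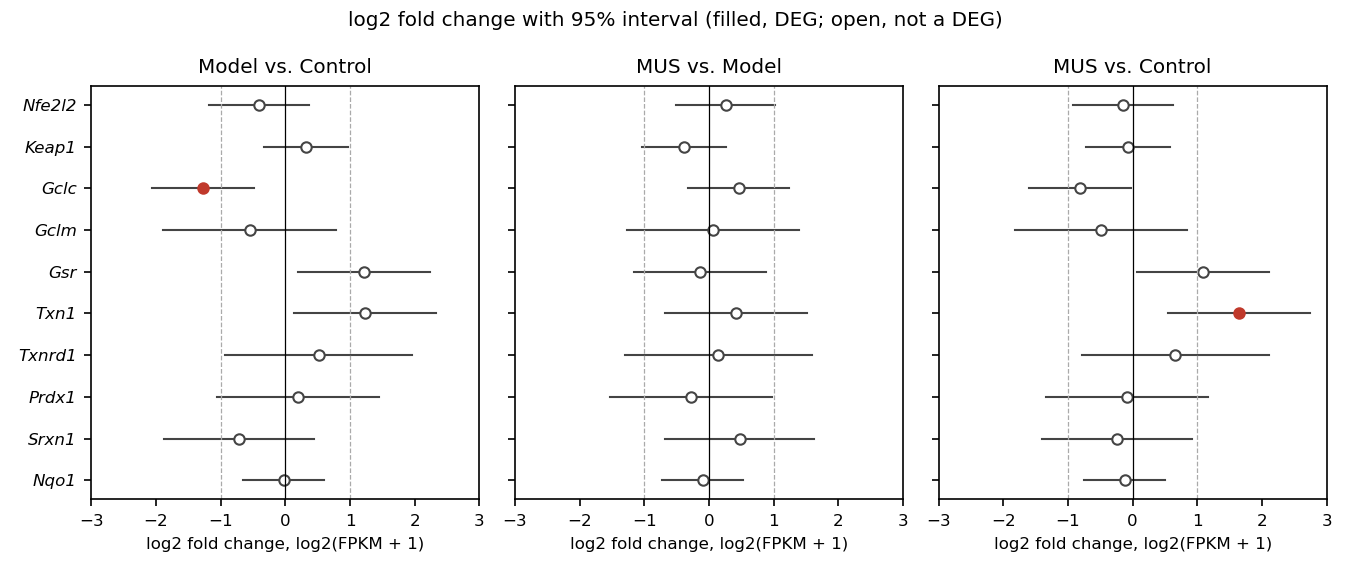
log2 fold change on the log2(FPKM + 1) scale (horizontal axes) of the 10 genes in the 3 comparisons, with 95% intervals from limma. Dashed lines mark -1 and 1, and filled points are DEGs. Gclc in Model vs. Control and Txn1 in MUS vs. Control are filled, and every interval in MUS vs. Model includes 0.

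MUS vs. Control, which shares its Control libraries with the first comparison and its MUS libraries with the second, had 1 DEG among the 10 genes, and it was higher in MUS. Of all genes, 20.2% were DEGs, 11.3% higher and 8.91% lower. Txn1 (ENSMUSG00000028367, GRCm38, chr4:57943373-57956411, minus strand) rose from 328 ± 2.00 FPKM to 1043 ± 225 FPKM (SD, n = 2), a log2 fold change of 1.65 (SE 0.47, adjusted p = 0.0423). Txn1 was not a DEG under 3 other scalings (0.96 to 1.11, adjusted p = 0.0583 to 0.0938), and under 2 of them the DEG was Gclc, lower in MUS (-1.33 rescaled and -1.32 with fragment totals). Txn1 was also not a DEG with no filter on low genes (adjusted p = 0.235), or without any one Control or MUS library (adjusted p = 0.0721 to 0.275). The log2 fold change stayed between 0.96 and 1.87 in these settings.

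Gsr was again above Control in both MUS libraries (1.08, SE 0.43, adjusted p = 0.110) and Gclc below (-0.81, SE 0.33, adjusted p = 0.116). Libraries did not overlap in Txn1, Gsr and Gclc, 3 of 10 genes against 73.3% of all genes. Of these, 2 were higher (39.6% of all genes) and 1 was lower (33.8%). The values again depended on the Control library. Without Control replicate 2, the log2 fold change was 1.71 for Gsr and 1.67 for Txnrd1. Without Control replicate 1, it was -1.26 for Gclc and -1.40 for Gclm. With each library left out in turn, Txnrd1 ran from -0.35 to 1.67 and Gclm from -1.40 to 0.43.

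Over the 3 groups, the genes whose pattern was most like that of Nfe2l2 were Bub1b, Wdr75 and Sfxn1. The measure was the root mean square difference of log2(FPKM + 1), centred on the mean of each gene over the 6 libraries, and it was 0.074 for Bub1b and 0.098 for Wdr75 and Sfxn1. Like Nfe2l2, Bub1b was highest in Control replicate 2 (2.81 FPKM) and lowest in Model replicate 2 (1.03 FPKM). This is a description over 6 libraries, and none of the other 9 members was among the nearest 3.

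The pathway around the 10 genes was described with 3 gene lists. The first held 11 regulators and partners of NRF2, such as the small MAF genes, the repressor Bach1, and Cul3 and Rbx1 of the ligase that KEAP1 serves. Of 10 tested in Model vs. Control, 1 was a DEG, against 15.1% of all genes, and the median log2 fold change was 0.16. Under 3 other scalings 0 rose, 0 or 1 fell, and the median turned negative (-0.45 to -0.27). The median over all genes was then -0.48 to -0.06. Mafk, a small MAF partner of NRF2, rose from 9.93 and 8.20 FPKM in Control to 20.1 and 23.8 FPKM in Model (log2 fold change 1.19, SE 0.26, adjusted p = 0.0252), but was not a DEG under 3 other scalings (0.60 to 0.95) or without any one library. Mafk had 15.5 and 20.8 FPKM in MUS (MUS vs. Control 0.92, adjusted p = 0.0434), which is under the fold threshold.

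The second list held 33 other targets of NRF2, of which 28 were tested. In Model vs. Control 0 were DEGs in the upward direction and 8 fell, with a median of -0.38, compared with 5.56% of all genes that were lower DEGs. The count that fell was 1 without Model replicate 1, 3 without Model replicate 2 or either MUS library, 4 without Control replicate 1, 3 with only the 2 groups compared and 0 with no filter, and it was 12 or 13 under 3 other scalings. Lower DEGs over all genes moved too, to 256 of 9794 with only the 2 groups compared and 32 of 30192 with no filter. Under those scalings they numbered 715 of 9794 (quantile), 1857 of 9938 (rescaled) and 1633 of 10066 (fragment totals). Idh1, a cytosolic source of NADPH, fell most, from 87.7 and 36.0 FPKM in Control to 9.31 and 6.82 FPKM in Model (log2 fold change -2.67, adjusted p = 0.00840). G6pdx, which makes NADPH in the pentose phosphate pathway, fell from 38.4 and 32.9 FPKM to 11.6 and 19.0 FPKM (-1.20, adjusted p = 0.0361). The other 6 were the heme transporter Slc48a1 (-1.54), the glutathione transferases Gstp1 (-1.46) and Gstm1 (-1.45), the carbonyl reductases Cbr3 (-1.45) and Cbr1 (-1.10), and Osgin1 (-1.31).

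In MUS vs. Control 8 genes of the second list also fell and 0 rose (median -0.54, with 8.91% of all genes lower DEGs). None was a DEG without MUS replicate 1, 3 fell without MUS replicate 2 and 2 with no filter, whereas 12 to 14 fell under 3 other scalings. Under those scalings the lower DEGs over all genes numbered 1102 of 9794 (quantile), 2035 of 9938 (rescaled) and 2044 of 10066 (fragment totals). With no filter they numbered 121 of 30192. The 8 genes that fell were Idh1 (-2.70), Slc48a1 (-2.58), Osgin1 (-1.78), Cbr3 (-1.74), biliverdin reductase Blvra (-1.45), Gstm1 (-1.28), Sesn2 (-1.18) and Cbr1 (-1.05). In MUS vs. Model the list had 0 DEGs and 3 of 28 genes with an unadjusted p under 0.05 (8.42% of all genes), and its median was -0.01. The mitochondrial share of fragments, given above, was lower in Model and MUS than in Control, together with these genes, and its part in them was not tested.

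The third list held 20 further genes of thiol and peroxide metabolism, all tested. In Model vs. Control 1 of 20 rose and 1 fell (median -0.31), against 9.50% and 5.56% of all genes. Under 3 other scalings 0 or 1 rose and 4 to 9 fell. Over all genes, the lower DEGs then numbered 715 of 9794 (quantile), 1857 of 9938 (rescaled) and 1633 of 10066 (fragment totals). The higher DEGs numbered 707, 581 and 647 in that order. Glutaredoxin Glrx rose from 3.74 and 5.87 FPKM to 15.3 and 13.4 FPKM (log2 fold change 1.42, adjusted p = 0.0134), though it was under the fold threshold after rescaling (0.87) or with fragment totals (0.96). Catalase Cat, which removes hydrogen peroxide, fell from 58.9 and 65.0 FPKM to 19.1 and 16.8 FPKM (-1.73, adjusted p = 0.00820). In MUS vs. Control 2 rose (11.3% of all genes) and 7 fell (8.91% of all genes), with a median of -0.44. Without MUS replicate 1 these counts were 0 and 0, without MUS replicate 2 they were 0 and 3, and with no filter 0 and 2.

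The 2 that rose in MUS vs. Control were Sod2 (2.92) and Glrx (1.15). Those that fell were the glutathione peroxidases Gpx4 (-2.35), Gpx1 (-1.61) and Gpx3 (-1.53), the thioredoxin inhibitor Txnip (-2.05), the methionine sulfoxide reductase Msrb1 (-1.93), Cat (-1.82) and Txnrd3 (-1.10). Txnip, which binds and blocks thioredoxin, had 72.9 and 69.2 FPKM in Control, 59.6 and 47.7 FPKM in Model and 15.0 and 17.7 FPKM in MUS. Both MUS libraries lay far below all others, yet Txnip was not a DEG in MUS vs. Model (-1.65, adjusted p = 0.273, unadjusted p = 0.000505). Gpx4, which reduces lipid peroxides, had 91.6 and 98.3 FPKM in Control, 80.2 and 45.5 FPKM in Model and 12.8 and 24.5 FPKM in MUS (MUS vs. Model -1.71, adjusted p = 0.378). In MUS vs. Model the third list had 0 DEGs, 6 of 20 genes with an unadjusted p under 0.05 against 8.42% of all genes, and a median of -0.28.

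**Figure D5:**
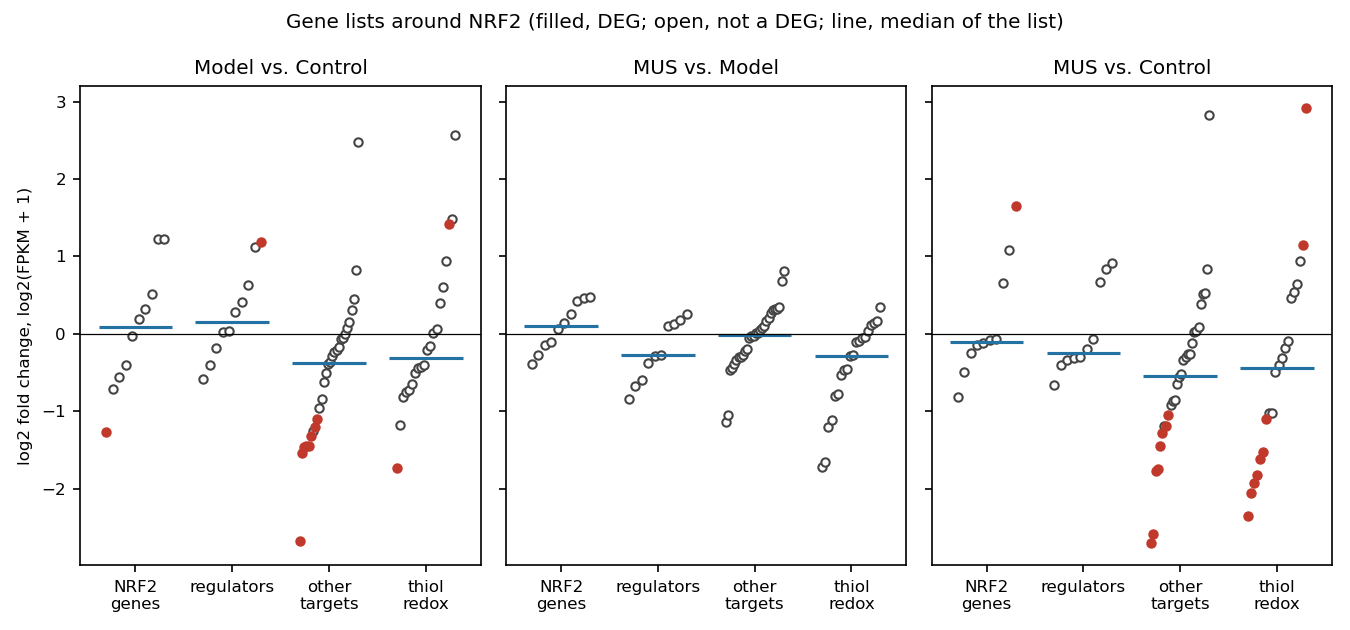
log2 fold change on the log2(FPKM + 1) scale (vertical axes) of every tested gene of 4 lists in the 3 comparisons, sorted within a list. Filled points are DEGs and blue lines are medians. The filled points of the other targets all lie below 0 (8 in Model vs. Control and 8 in MUS vs. Control), and there is no filled point in MUS vs. Model.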

How the data were processed

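RNA-seq libraries of 3 groups (Control, Model and MUS) with 2 libraries each were analysed, grouped by their sample labels. The authors deposited 1 table of FPKM for 54532 genes, quantified with RSEM according to the study's methods. The submitters' processing notes name HISAT2, featureCounts 1.5.0-p3 and GRCm39 without a role, whereas positions in the table matched GENCODE M21 on GRCm38 for 98.3% of 54409 shared gene identifiers and for all 10 genes. All 6 per-library columns were used and 0 had no sample. FPKM times gene length was a whole multiple of 1 step (tolerance 0.1), so whole fragments per gene could be recovered. Counting error alone is covered by such fragments, and 3 fragments on a gene of 1 kb correspond to 0.131 to 0.213 FPKM.

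limma 3.58.1 in R 4.3.3 was fitted with a mean-variance trend to log2(FPKM + 1). The filter kept 9794 genes, those averaging 1 FPKM or more, and the 6 libraries shared one model (3 residual and 4.04 prior degrees of freedom). All p-values are two-sided and Benjamini-Hochberg adjusted over these genes unless called unadjusted. A gene was a DEG at an adjusted p of 0.05 or less and a log2 fold change beyond 1 in size, the thresholds of the study, whose own test took counts. Tables and figures were made in Python 3.11.15 with pandas 2.3.3, NumPy 2.4.6 and Matplotlib 3.10.9. The fit was tested on simulated data. Recovery of planted changes was required only at a smaller spread than that of these data. At the full spread only the sign of those called was checked.

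The labels give the replicate number as batch. Replicate differences correlated across genes with r = 0.119 (Control with Model), 0.136 (Model with MUS) and -0.093 (Control with MUS). A fit with the replicate number as a block was therefore an alternative. Other alternatives changed the pseudocount (0.1), the filter (none, or a mean FPKM of 5), the scaling, the trend, the groups in the fit, voom on recovered fragments, a gene-length correction, and each library in turn. Scaling to fragment totals combined with the block, or without Control replicate 2, was added after the data were seen.

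The 10 genes and the 3 lists were chosen with earlier results of these data known. All 10 genes are named, as are list genes that were DEGs in any comparison, and the 3 genes closest to Nfe2l2. Other list genes are named as chosen after their values were seen.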

Additional observations from a re-analysis of the deposited data

How the results depend on the processing

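MUS vs. Model had 0 DEGs among the 10 genes in every alternative. In Model vs. Control, where 1 was found, the count was 0 with no filter and with only the 2 groups compared. It was 2 after quantile normalization, after rescaling without mitochondrial and the 20 highest genes, with fragment-total scaling and the replicate block, and with fragment-total scaling without Control replicate 2. In MUS vs. Control, also with 1, it was 0 with no filter and after quantile normalization, and 2 with fragment-total scaling without Control replicate 2. It was still 1 when rescaled and with fragment totals, with or without the block, but the DEG was then Gclc (lower) and not Txn1 (higher). Leaving out each library in turn gave 0 to 2 in both comparisons with Control. With the replicate block and no other change, Gclc in Model vs. Control (adjusted p = 0.0398) and Txn1 in MUS vs. Control (0.0407) were DEGs as before. On the deposited scale the pairing of replicates thus changed no call among the 10 genes. With fragment totals, the block raised the count in Model vs. Control from 1 to 2.

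In Model vs. Control the log2 fold change turned sign for Keap1 (-0.23 rescaled, -0.16 with fragment totals, with or without the block), Nqo1 (0.048, quantile), Txnrd1 (-0.31 quantile, -0.11 rescaled, -0.027 with fragment totals, with or without the block) and Prdx1 (-0.66, -0.44 and -0.35 likewise). In MUS vs. Control it turned for Txnrd1 (-0.047, quantile). With 1 library left out the ranges included both signs in Model vs. Control for Nqo1 (-0.30 to 0.25), Gclm (-1.47 to 0.36), Txnrd1 (-0.49 to 1.52), Srxn1 (-1.46 to 0.027) and Prdx1 (-0.38 to 0.77). They did so in MUS vs. Model for Nqo1 (-0.23 to 0.036), Gclm (-0.14 to 0.27), Prdx1 (-0.76 to 0.21) and Txn1 (-0.14 to 0.98). In MUS vs. Control they did so for Nfe2l2 (-0.44 to 0.14), Keap1 (-0.28 to 0.14), Nqo1 (-0.40 to 0.15), Gclm (-1.40 to 0.43), Txnrd1 (-0.35 to 1.67), Srxn1 (-0.99 to 0.50) and Prdx1 (-0.66 to 0.49). The cause was not tested.

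Over all genes, 1475 DEGs in Model vs. Control became 260 with no filter, where 30192 genes were tested, 797 with only the 2 groups compared, 2280 with fragment totals, 2438 rescaled (581 higher and 1857 lower), 2419 with fragment totals and the block, 2966 with fragment totals without Control replicate 2, and 692 to 2077 with 1 library left out. Quantile normalization gave 707 higher and 715 lower. The 1980 DEGs in MUS vs. Control became 456 with no filter, 3376 with fragment totals without Control replicate 2, and 184 to 2398 with 1 library left out. They split into 720 higher and 2035 lower when rescaled, 743 and 2044 with fragment totals, and 885 and 1102 after quantile normalization. The 0 DEGs in MUS vs. Model became 4 with the replicate block, 7 with only the 2 groups compared, 1 with a pseudocount of 0.1, and 0 to 31 with 1 library left out. A lone library left in a group is assumed to vary like the other groups. Repeats for list genes covered only those that were DEGs in that comparison to begin with, which makes a turn of sign unlikely. Of 523 such repeats, 402 kept their call, 121 lost it and 0 turned sign. Of 567 repeats for the 10 genes, taken whether or not they were DEGs, 35 turned sign. Without a turn of sign, 17 lost a call, 17 gained one and 498 kept theirs.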
